A study of Drosophila melanogaster with 5 samples.

Results

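Pita was called alone, against input DNA and against preimmune serum, at 819 sites on the autosomal arms 2L, 2R, 3L and 3R of Drosophila melanogaster embryos. These sites were chosen by their peak calls: an interval of the Pita list against input had to share at least 1 bp with an interval of the Pita list against preimmune serum, and none with an interval of the ZIPIC or Zw5 lists against input. They make up 819 of the 1845 Pita intervals against input, which lie among 5386 intervals in all 6 lists. Chromatin came from Oregon-R embryos, a wild-type strain, gathered over a 12 h collection. The Pita precipitate used a rabbit antibody to residues 550 to 683 of Pita, and the ZIPIC and Zw5 precipitates used rabbit antibodies to residues 84 to 257 and 98 to 302 of those proteins. Controls were input chromatin and a mock precipitate made with preimmune rabbit serum. Each of the 5 groups is 1 library of whole embryos, so no value has a replicate check and cell types and stages are mixed. Per the peak names, Pita and Zw5 came from chromatin preparation A and ZIPIC from preparation B. All positions are on dm3, counted from 1. Genes, promoters and sequence motifs at the sites were not analysed here.

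Pita is a DNA-binding protein with a row of C2H2 zinc fingers and an N-terminal zinc-finger-associated domain, through which proteins of this kind pair with themselves. It is known as an architectural protein: it binds domain boundaries, among them boundaries of the bithorax complex of Hox genes, and recruits the insulator cofactor CP190. ZIPIC and Zw5 have the same domain layout and are also described at insulators. A site of Pita alone is therefore a place where 1 of these 3 related proteins was detected and the other two were not called.

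On the 4 arms, 1404 Pita intervals were called against input and 1048 of them also against preimmune serum, which is 74.6% (Wilson 95% interval 72.3 to 76.9). Of those 1048, 819 had neither ZIPIC nor Zw5, or 78.1% (75.5 to 80.5). The other 229 carried Zw5 only in 166 cases, ZIPIC only in 23 and both in 40. Where ZIPIC and Zw5 peaks, like those of Pita, had to be called against both controls, 951 of the 1048 sites (90.7%) were alone and 97 were not, so the set with a second protein depends on this choice. On X the rule would keep 233 of 284 sites, a share of 82.0% (77.2 to 86.1), and over all sequences 1087 of 1381, a share of 78.7%. These intervals and those below cover counting error only. How far "alone" reaches depends on the other libraries: the lowest called fold over input was 3.94 for ZIPIC and 1.90 for Zw5. The genome-wide input background, scaled to each precipitate, was 1.06 fragments for ZIPIC, 10.3 for Zw5 and 9.18 for Pita. The shortest intervals were 152, 241 and 218 bp in that order. Being alone with respect to ZIPIC thus rests on a list with far fewer fragments per position than those of Zw5 and Pita. The part of these differences in which sites count as alone was not tested.

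The fold and p-value of each peak give the number of Pita fragments stacked at its summit (the pileup) and the background that the control predicts there. At the 819 sites the pileup ran from 34 fragments to 430, with a median of 207. The exact Poisson 95% intervals of single counts of this size are 23.5 to 47.5, 390 to 473 and 180 to 237, so weak and strong sites were far apart against counting error. No pileup in the Pita list against input passed 436 fragments, so the interval for the highest count is nominal. The same precipitate was scaled by 0.533 in the list against preimmune serum: this 1 factor matched the p-value of 100% of the 803 Pita sites that had the same summit in both lists. The genome-wide background was 9.18 fragments with input and 4.89 with preimmune serum, and their ratio was 0.532. The 2 folds of a site therefore rest on the same Pita fragments. They differ with the background of the control and also with the scale, since 1 is added to the pileup and to the background after scaling. At the 46 sites where both backgrounds stood at the genome-wide level, the fold over input divided by the fold over preimmune serum was 1.06 to 1.08, so equal enrichment gives a ratio slightly above 1.

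Pita sites ranged from weak to strong, with the largest number per step of fold at the weak end. Fold over input was below 9 at 278 of the 819 sites (33.9%, Wilson 95% interval 30.8 to 37.3), from 9 to below 15 at 93 (11.4%, 9.36 to 13.7) and 15 or more at 448 (54.7%, 51.3 to 58.1). In steps of 3, the fullest bin was 3 to 6 with 164 sites, the bins from 12 to 21 held 42, 50 and 47, and a lower second high of 70 lay between 24 and 27. The ranges are of unequal width, so their counts are no measure of a gap between them. With −log10 q of at least 10 in both Pita lists, 20.6% of the remaining 681 sites were below 9-fold. The median pileup was 62 fragments in the weak range, 131 in the middle and 319 in the strong one. The bounds 9 and 15 were set after the distribution was seen and only describe it.

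**Figure D1:**
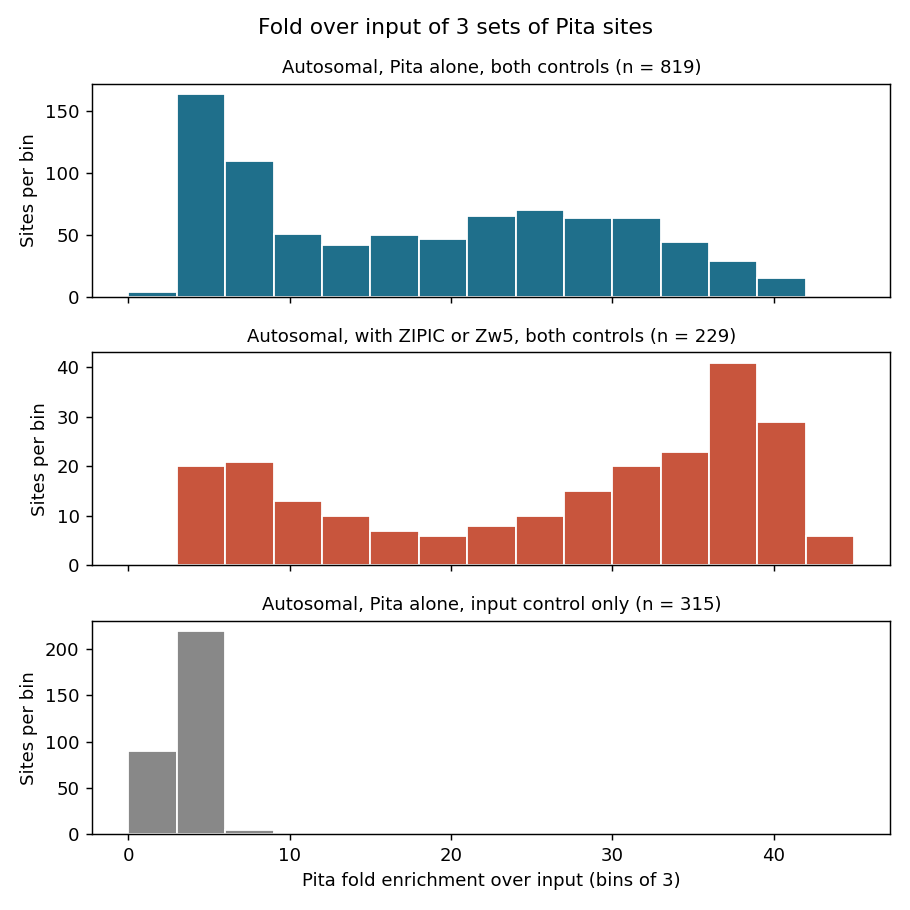
Number of Pita sites in bins of 3 of fold over input, for the 819 autosomal Pita-alone sites, the 229 autosomal sites with ZIPIC or Zw5 and the 315 autosomal Pita-alone sites called against input only. The Pita-alone sites have a peak of 164 sites at 3 to 6 and a second rise to 70 at 24 to 27, the sites with ZIPIC or Zw5 are fullest at 36 to 39, and the sites called against input only lie almost wholly below 9.

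Sites with a second protein had the higher Pita folds. The median fold over input was 17.4 at the Pita-alone sites (quartiles 6.89 and 27.5), against 30.7 at the 229 autosomal sites with ZIPIC or Zw5 (13.1 and 37.7). The weak range held 33.9% of the Pita-alone sites and 17.9% of the others (13.5 to 23.4). Fold is among the values that chose the sites, so these are descriptions without a test. Pileups stop at 436 fragments in the whole Pita list, which equals 2 times the shortest interval of 218 bp and, over the genome-wide input background, a fold of 42.9. Keeping 1 read per position and strand would give such a limit, but no source used here gives the setting. Of the Pita-alone sites, 69 (8.42%) reached 90% of that limit, against 94 (41.0%) of the sites with ZIPIC or Zw5. Whether the limit affects the difference between the sets was not tested.

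The highest Pita-alone sites were near the limit on every arm. On 2L the first was chr2L:17962823-17963607, with 426 Pita fragments and folds of 41.9 over input and 16.3 over preimmune serum. Next came chr2L:8888545-8889475 (411 fragments, 40.5-fold over input), chr2L:13445408-13446120 (400 fragments, 39.4-fold), chr2L:9520476-9521381 (393 fragments, 38.7-fold) and chr2L:17715205-17716423 (388 fragments, 38.2-fold). These 5 sites were close to each other over input and further apart over preimmune serum, where chr2L:13445408-13446120 stood at 35.7-fold and the other four between 12.4-fold and 16.3-fold. On 2R the first was chr2R:13332192-13333022, with 411 fragments at 40.5-fold for input and 16.9-fold for preimmune serum. The next were chr2R:17948029-17948797 (40.4-fold over input), chr2R:10897983-10899101 (39.98-fold), chr2R:16439362-16440062 (39.8-fold) and chr2R:10028161-10029076 (38.6-fold). The last of these had the highest fold over preimmune serum of the 5, at 35.8.

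The third chromosome showed the same contrast between the controls. On 3L chr3L:15629838-15630725 had 416 fragments and was high against either control, at 40.96-fold for input and 37.1-fold for preimmune serum. The second, chr3L:16043910-16044510, had 407 fragments and 40.1-fold over input, but 9.47-fold over preimmune serum, where the background was 22.0 fragments. The remaining 3L sites were chr3L:604399-605237 (40.0-fold over input, 11.0-fold over preimmune serum), chr3L:16030055-16030926 (39.8-fold and 13.6-fold) and chr3L:5083043-5084061 (38.4-fold and 35.4-fold). On 3R the first was chr3R:1151337-1153027, a wide interval of 1691 bp with 426 fragments and folds of 41.9 over input and 17.5 over preimmune serum. Next came chr3R:7519932-7521467 (40.7-fold over input), chr3R:2696378-2697143 (40.4-fold), chr3R:2911578-2912482 (40.1-fold) and chr3R:13744512-13745372 (38.9-fold), with folds over preimmune serum between 19.2 and 28.7.

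**Figure D2:**
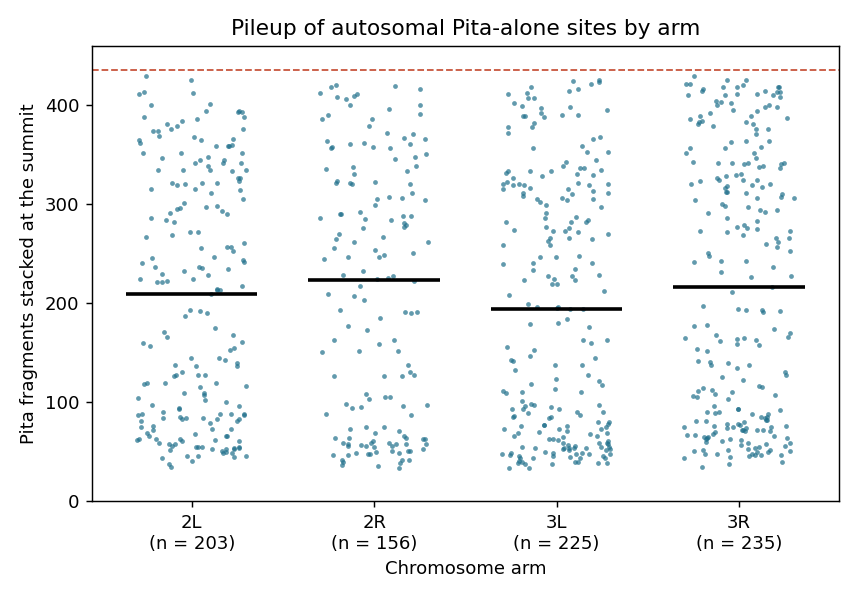
Pita fragments stacked at the summit of each of the 819 autosomal Pita-alone sites, by chromosome arm (points, spread sideways for legibility), with the median of each arm (black line) and the limit of 436 fragments (dashed line). The medians are 209 on 2L, 223 on 2R, 194 on 3L and 216 on 3R, and each arm spans almost the whole scale.

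Fold over input was much alike on the 4 arms. The median fold over input was 18.0 on 2L (203 sites, order-statistic 95% interval of the median 13.0 to 21.1), 17.6 on 2R (156 sites, 14.5 to 20.8), 17.7 on 3L (225 sites, 11.2 to 20.4) and 17.2 on 3R (235 sites, 14.5 to 22.3). The weak range held between 32.1% of the sites on 2R and 36.0% on 3L, with overlapping Wilson intervals. The order of the arms by median is therefore not resolved at this number of sites.

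No difference in arm between Pita-alone sites and those with ZIPIC or Zw5 passed the test. 2L held 24.8% of the Pita-alone sites and 23.6% of the 229 others, 2R 19.0% and 18.3%, 3L 27.5% and 24.9%, and 3R 28.7% and 33.2%. The odds ratios were 1.07, 1.05, 1.14 and 0.810 in that order. By Fisher's exact test, two-sided, with Benjamini-Hochberg adjustment, the lowest p was 0.191 for 3R (adjusted p = 0.765), and the adjusted p of the other arms was 0.849. The test has sites of 1 library as its units, so it describes these lists and not variation between embryos. Up to the highest coordinate in any list, the density of Pita-alone sites was 8.90 per Mb on 2L, 7.82 on 2R, 9.39 on 3L and 8.44 on 3R.

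The control background at the sites is given as a multiple of the genome-wide level of that control. The preimmune median was the further above 1. The input background at the 819 sites had a median of 1.11 times the genome-wide level (quartiles 1.00 and 1.28), and 7 sites (0.855%) reached 2 times. The preimmune background had a median of 1.43 times (1.09 and 1.84), and 170 sites (20.8%) reached 2 times. The peak caller takes by default the highest of several window estimates, so neither ratio falls below 1, and counting noise can lift it. The input level of 9.18 fragments is scaled to the Pita precipitate and is not a count of input fragments. Against preimmune serum the Pita pileup was scaled instead, by 0.533, and backgrounds there often lay at whole numbers of fragments. The preimmune median of 1.43 times was a background of 6.98 fragments over a level of 4.89. How much counting noise lifts the preimmune ratio was not tested, and for the input ratio it cannot be read from 9.18. Regions without Pita were not compared, and sites with a high preimmune background could fail the second call. Both limits come from the rule and the method, and no test was made. The fold over input divided by the one over preimmune serum had a median of 1.23, against a median of 1.08 at the 46 sites with both controls at the genome-wide level. It was above 1 at 656 sites (80.1%), which the scaling alone favours, and above 1.08, the highest value among those 46, at 540 (65.9%).

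The median preimmune background was 1.43 times the genome-wide level at the strong sites and 1.23 times at the weak ones, and the input background was 1.12 times in both. A weak site with a high preimmune background fails the call that the rule requires, so the rule itself lowers the preimmune background of the weak range, and nothing is read from this gap. At the 229 autosomal sites with ZIPIC or Zw5 the preimmune background had a median of 1.84 times the genome-wide level, and 97 sites (42.4%) reached 2 times. Among sites of 15-fold or more alone, it was 1.43 times at the Pita-alone sites and 1.84 times at the 165 sites with ZIPIC or Zw5. On X, at the sites of Pita alone, preimmune and input background each had a median of 1.00 times the genome-wide level. That level is shared by all chromosomes and is the lowest a site can take, so a lower background on X is not seen. At the genome-wide preimmune level stood 14.0% of the autosomal Pita-alone sites and 57.9% of the 233 on X, and at the genome-wide input level 31.0% and 57.1%. The median ratio of the folds was 1.08 on X. The part of the preimmune background in the differences between these sets was not tested.

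**Figure D3:**
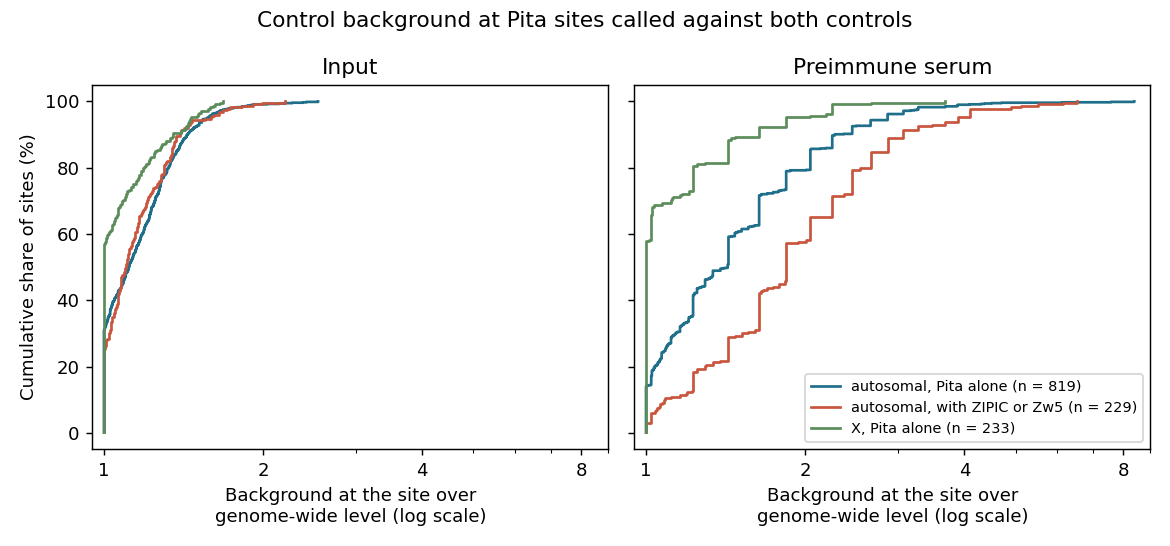
Cumulative share of sites by control background at the site, as a multiple of the genome-wide level of that control (log scale), for input (left) and preimmune serum (right). For preimmune serum the autosomal Pita-alone sites lie between the autosomal sites with ZIPIC or Zw5 and the X sites of Pita alone. The sites with ZIPIC or Zw5 have the higher background there. The X sites mostly stand at 1, the lowest value that either ratio can take. The input curves of the autosomal sets lie close together.

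A few sites had a preimmune background far above the rest. chr2L:19571623-19572406 had a Pita pileup of 352 fragments and was 30.8-fold over input but 4.49-fold over preimmune serum, with a preimmune background of 41.0 fragments. chr2L:19575468-19576199, the next site along the arm, had 327 fragments, 25.7-fold over input, 5.65-fold over preimmune serum and a preimmune background of 30.0. These 2 neighbours thus share a high preimmune signal. chr3L:606706-607495 had 378 fragments, 37.2-fold over input, 5.32-fold over preimmune serum and a preimmune background of 37.0. Its neighbour chr3L:604399-605237, given above among the highest on 3L, had a preimmune background of 18.9. The other sites with the largest ratio of the folds were chr2L:4809563-4810459 (34.3-fold over input, 7.85-fold over preimmune serum) and chr3L:16043910-16044510.

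At other sites the fold over preimmune serum was the higher one, and the input background stood above its genome-wide level. Both folds hold the same Pita fragments, so a ratio below 1 requires this input background and it is no separate result. chr3R:19881643-19881973 had the lowest ratio, with 93 fragments, 4.43-fold with input and 8.58-fold with preimmune serum as the control at an input background of 20.2 fragments. chr3R:11738807-11739336 was 14.8-fold with input and 25.0-fold with preimmune serum as the control at an input background of 22.2. The remaining 3 were chr3R:4134168-4134678 (16.0-fold and 26.5-fold), chr2R:18949860-18950470 (17.2-fold and 26.9-fold) and chr3L:10356872-10357221 (5.00-fold and 7.71-fold). The 5 highest over preimmune serum were chr3R:20185608-20186385 at 37.6-fold, chr3L:15629838-15630725 at 37.1-fold, chr3R:21019314-21020133 at 36.6-fold, chr3L:2265632-2266363 at 36.3-fold and chr3L:11674710-11675351 at 35.9-fold. Of these only the second, with 40.96-fold, was also among the 5 highest over input of its arm. The preimmune background of the other four was at the genome-wide level of 4.89.

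**Figure D4:**
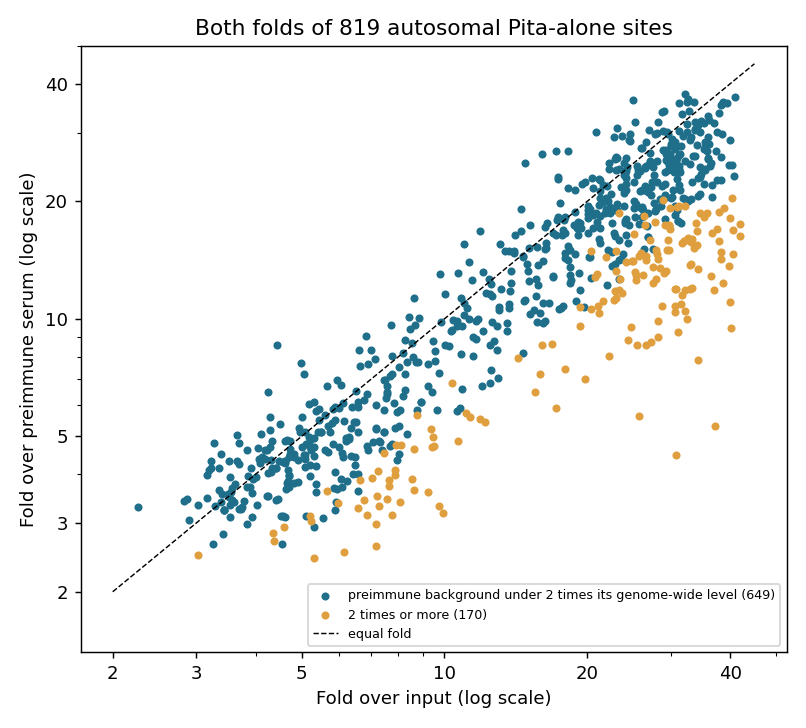
Fold over input (horizontal axis) and over preimmune serum (vertical axis) for the 819 autosomal Pita-alone sites (both axes log scale), with the line of equal fold. The 170 sites with a preimmune background of 2 times its genome-wide level or more lie mostly well below the line, and the 163 sites on or above it had the higher fold over preimmune serum.

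The folds against input and against preimmune serum were correlated across the 819 sites, with a Spearman's rho of 0.85 that is partly built in, since both hold the same Pita fragments. The rho was 0.70 at the 229 autosomal sites with ZIPIC or Zw5 and 0.94 at the 233 Pita-alone sites on X. These values are given without a test.

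The sites lowest over preimmune serum had few Pita fragments and a preimmune background above its genome-wide level, both of which lower the fold. The 5 lowest over preimmune serum were chr2L:19416517-19417204 at 2.44-fold, chr3R:19104941-19105217 at 2.48-fold, chr3R:10921321-10921766 at 2.53-fold, chr3R:9914572-9914924 at 2.62-fold and chr3L:11208313-11208872 at 2.65-fold. Their pileups ran from 38 to 74 fragments and their preimmune backgrounds from 7.0 to 15.0. Fold does not rank the sites by nearness to the call. The −log10 q against preimmune serum was 5.06 at chr3R:9914572-9914924, but 3.14 at chr3R:3711055-3711501, a site of 2.66-fold over preimmune serum. Outside the rule were Pita-alone sites called against input but not preimmune serum. No preimmune fold is given for those sites, so how near they came to that call is not known. The highest of these 315 over input were chr2R:11735444-11735859 at 9.47-fold with 106 fragments, chr2L:107655-108016 and chr2L:3657374-3657733 at 6.98-fold and 6.97-fold, chr2L:4997960-4998407 at 6.97-fold and chr3R:11866662-11867030 at 6.78-fold. In pileup the 2 sets overlapped: 283 of the 819 sites had at most 106 fragments, and 200 of the 315 sites outside had at least 34, the lowest pileup inside.

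The place of the summit was nearly the same with either control. It was the same base in both lists at 491 sites (59.95%) and lay within 25 bp at 811 (99.0%). The precipitate is the same in both calls, so this does not repeat the measurement. The largest shift, 242 bp, was at chr3L:2228596-2229276, a site of 7.0-fold with input and 8.31-fold with preimmune serum as the control. Intervals had a median of 604 bp against input and 504 bp against preimmune serum, and the summit lay in the middle 20% of the interval at 613 sites (74.8%). Wider intervals went with higher pileups (Spearman's rho 0.77 across the sites, a description). The median width was 397.5 bp in the weak range and 736 bp in the strong one, and the widest site, chr2R:1903063-1905274, spanned 2212 bp at 33.9-fold over input.

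Most Pita-alone sites had no other Pita-alone summit within 20 kb, and no random placement was drawn for comparison. The nearest other Pita-alone summit was a median of 30.8 kb away (order-statistic 95% interval 27.6 to 35.2, quartiles 12.3 and 69.8). It lay within 5 kb for 102 sites (12.5%), within 20 kb for 305 (37.2%) and beyond 100 kb for 130 (15.9%). The weak, middle and strong ranges had medians of 32.5, 37.3 and 29.0 kb, and their order-statistic intervals overlap. Counting any Pita site called against both controls as a neighbour, 121 of the Pita-alone sites (14.8%) had one within 5 kb, against 29 of the 229 sites with ZIPIC or Zw5 (12.7%). Within 20 kb the shares were 44.3% and 42.4%, and 46.8% at the 233 Pita-alone sites on X. These differences were not tested.

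Windows of 1 Mb were counted up to the highest coordinate in any list on each arm, and sequence beyond it was not covered. Each of the 91 full windows held at least 1 site, with a median of 9. The fullest was the first Mb of 2L with 20 sites, and next came 14 to 15 Mb of 3L with 18 and 9 to 10 Mb of 2L with 17. Sites with ZIPIC or Zw5 numbered 0, 3 and 4 in these windows, against 229 of 1048 over the 4 arms. Other windows also held 0 of them, such as 25 to 26 Mb of 3R with 14 Pita-alone sites. Between neighbouring Pita-alone summits, the longest stretches were 825 kb on 3L, from 22975365 to 23800846, and 823 kb on 2R, from 15028900 to 15852293. On 3R the longest was 819 kb, from 13744941 to 14564033, and on 2L 777 kb, from 11172163 to 11948673. The stretches from the outermost summits to the arm ends were not measured. Linking summits at most 20 kb apart left 514 sites single, 100 pairs, 25 runs of 3, 5 runs of 4 and 2 runs of 5. The runs of 5 covered 2L from 819898 to 855380, with folds over input of 3.70 to 24.0, and 3L from 14205612 to 14229157, with folds of 3.93 to 34.8. Within these runs weak and strong sites stood side by side.

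The closest pairs joined separate intervals with summits under 1 kb apart. On 3R, chr3R:12437019-12437391 and chr3R:12437459-12437799 had summits 424 bp apart, with 74 and 58 fragments and 5.66-fold and 4.29-fold over input. On 3L, chr3L:15361341-15361680 and chr3L:15361756-15362257 were 458 bp apart, at 4.42-fold and 3.44-fold. Both of these pairs join 2 weak sites. Each of the next 3 pairs holds at least 1 strong site. The intervals chr3L:20704516-20705039 and chr3L:20705391-20705823 were 802 bp apart at 19.6-fold and 4.19-fold, chr2L:20835244-20835944 and chr2L:20836375-20836857 were 881 bp apart at 36.2-fold and 11.8-fold, and chr3R:2471320-2472009 and chr3R:2472104-2472848 were 885 bp apart at 18.4-fold and 30.4-fold.

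ZIPIC and Zw5 peaks were further from Pita-alone sites than these sites were from each other. The nearest ZIPIC summit was a median of 87.2 kb away and the nearest Zw5 summit 67.35 kb. These lists are shorter, at 575 and 695 intervals over the genome, and sites that overlap them were left out by the rule, so no excess or lack follows from the distances. A ZIPIC or Zw5 summit lay within 1 kb at 11 sites (1.34%), within 5 kb at 72 (8.79%) and within 20 kb at 238 (29.1%). The 11 sites include chr3R:8453304-8453947, at 32.9-fold over input with a Zw5 summit 812 bp away, and chr2R:14740678-14741069, at 7.66-fold with a ZIPIC summit 454 bp away, both named after their values were seen. The 2 sites chr2L:17735296-17735851 at 8.64-fold and chr3L:12508276-12508593 at 2.90-fold had summits of both proteins within 1 kb and were singled out for that.

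**Figure D5:**
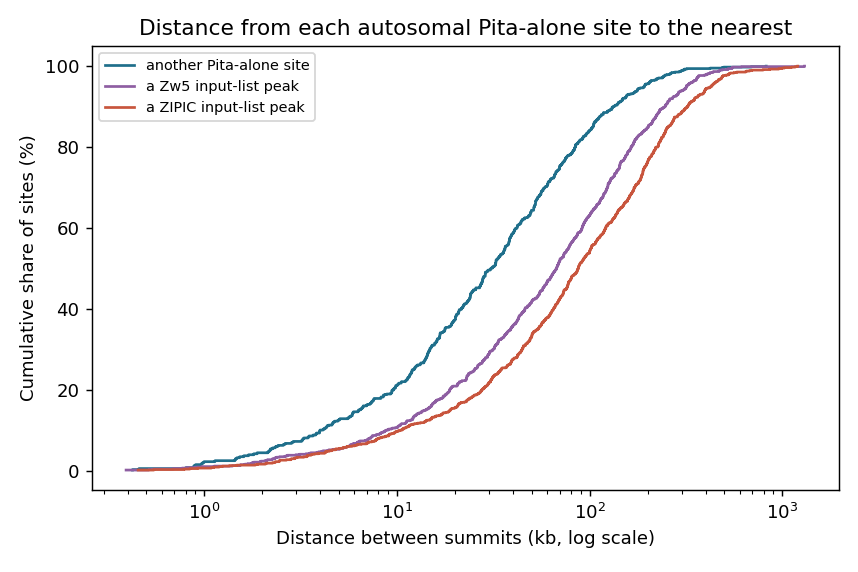
Cumulative share of the 819 autosomal Pita-alone sites by distance from their summit to the nearest other Pita-alone summit, Zw5 summit and ZIPIC summit (kb, log scale). The medians are 30.8, 67.35 and 87.2 kb.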

How the data were processed

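The deposited files are 6 MACS2 peak lists on dm3, 1 per protein and control. Per the submitters' processing notes, cutadapt, Bowtie and MACS2 2.1.0.20140616 were used. No source used here gives arguments, thresholds or the treatment of duplicate reads. The ratio deposited by the authors is the fold at the summit over the control's local background, beside deposited −log10 p and −log10 q values, and in 100% of peaks the whole part of 10 times −log10 q equals the deposited score. These are the authors' values and served to describe peaks within a list.

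Pileup and background were solved from fold, as (pileup + 1)/(background + 1), and p, as the Poisson tail beyond the pileup. The Pita pileups against input were within 0.05 of a whole number in 100% of peaks. Against preimmune serum, 1 scale for all peaks was fitted, with p taken from the whole part of the scaled pileup, and 100% of peaks matched within 0.002 in −log10 p. The solution was tested on simulated data. The total reads of each library are not known.

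Overlap required 1 bp. Named sites are the 5 highest over input on each arm, the 5 highest and 5 lowest over preimmune serum and the 5 closest pairs. Also named are the 5 highest and 5 lowest ratios of the folds. The last are the 5 highest over input of the autosomal Pita-alone sites not called against preimmune serum. Of the planned results, transcription starts, annotation classes, motifs and sites of the bithorax complex needed a dm3 genome or annotation and are not analysed here. Arms were compared by Fisher's exact test, two-sided. Alternatives were a stricter threshold, a larger overlap and 2 other exclusions. Sites and lists were chosen with earlier results of these data known. The tools were scipy 1.17.1 for tests and intervals, statsmodels 0.14.6 for adjustment, pandas 2.3.3 and numpy 2.4.6 for tables, and matplotlib 3.10.9 for plots, under Python 3.11.15.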

Additional observations from a re-analysis of the deposited data

How the results depend on the processing

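The number of Pita-alone sites stayed within 1.5 times of 819 under all 4 alternatives: 681 with −log10 q of at least 10 in both Pita lists, 819 with 50% overlap of the shorter interval, 951 when only ZIPIC or Zw5 peaks called against both controls excluded a site (which left 97 sites with a second protein, against 229), and 808 when a ZIPIC or Zw5 summit within 1 kb also did. The median fold over input moved to 21.3 with the stricter threshold and 20.1 with the looser exclusion, and the median fold over preimmune serum to 14.7 with the stricter threshold. The share of sites below 9-fold over input was 20.6% with the stricter threshold, which removes weak peaks by construction. The preimmune background stayed at 1.42 to 1.43 times its genome-wide level. The arm odds ratios ran from 0.762 to 1.20, crossing 1 for 2R with the stricter threshold (0.984) and for 2L (0.876), 3L (0.95) and 3R (1.04) with the looser exclusion, and none passed the test in any setting. Densities per arm and the distance to the next site moved with the number of sites. No paired analysis was possible because each group is 1 library. Transcription start and motif alternatives were not run. The total reads of the libraries are not known, and the scaled backgrounds show only that the ZIPIC level was far below those of Pita and Zw5. What depth limits was not tested.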
